A study of Mus musculus with 192 samples.

Results

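The comparison described here is T3 against T1 in the left and right cortices of nontransgenic (NON) mice. Its members were the 22 cortex pools labelled NON at those time points, out of 192 pools in the whole series. Each cortex had 5 pools at T1, made from 9 mice aged 99 to 101 days, and 6 pools at T3, made from 9 mice aged 400 to 406 days where the labels give an age. A pool is RNA of 1 or 2 male mice of the same genotype and collection time, and pools are named here by their animals, so that pool 8/9 combined animals 8 and 9. NON mice carried no copy of the transgene that defines the L44 line, which is triprolyl human amylin driven by the rat insulin 2 promoter on the FVB/n background. They came from matings of hemizygous parents and were littermates of the transgenic mice only where that was possible, so they are line controls and not a wild-type colony. At T3 the labels mark 3 NON pools of each cortex as previously diabetic and 3 as not. T1 held 2 pools collected in the morning (AM) and 3 in the afternoon (PM), and T3 held 3 of each. Both cortices came largely from the same mice, so a change seen in both is not seen in independent animals. T1 and T3 mice were different animals. Values given below as on the left and on the right are those of the left and right cortex.

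The nCounter platform counts each mRNA with its own barcoded probe, without amplification, and a panel of 43 target genes of the amylin, insulin and leptin pathways and 3 reference genes was counted in each pool. Leptin acts through its receptor, of which the long form Lepr-b carries the signal to the kinase Jak2 and the transcription factor Stat3. Insulin acts through its receptor Ir, its substrates Irs1 and Irs2, the phosphoinositide 3-kinase subunits Pik3ca and Pik3r1, and the Akt kinases. Amylin binds the calcitonin receptor Calcr when it is joined by a receptor activity modifying protein (Ramp1, Ramp2 or Ramp3). Genes are counted here by probe, as the study lists them. Lepr and Lepr-b are probes of the same gene, as are Calcr, Calcr-1a and Calcr-1b, and each counts as a gene below. Most of the appetite peptides on the panel are best known from the hypothalamus, while Npy is also a classic product of inhibitory interneurons of the cortex.

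Depth differed between the time points and comes first, because it bears on everything that follows. In the left cortex, the target genes summed to 276359, 301307, 362898, 402089 and 424114 in the T1 pools, from low to high, and 51446 to 151941 (median 135752.5) in the T3 pools. The right cortex pools summed to 298892, 388874, 414121, 420708 and 428110 at T1 and 92895 to 179716 (median 138927) at T3. Every T3 pool was below every T1 pool in both cortices. T1 totals were 3.12-fold those of T3 on the left and 2.86-fold on the right, on the mean of log2 values (two-sided exact permutation test, p = 0.00216 in each, the smallest that 5 against 6 pools allow, adjusted p = 0.00289 over 8 depth tests). The reference genes, as a geometric mean per pool, were lower too, by a factor of 2.45 on the left and 2.22 on the right (exact permutation test, p = 0.00216 in each, adjusted p = 0.00289). The spiked positive control probes went the other way, and were 0.38 higher at T3 on the log2 scale on the left (exact permutation test, p = 0.039, adjusted p = 0.0445) and 0.64 higher on the right (exact permutation test, p = 0.00216, adjusted p = 0.00289).

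**Figure D1:**
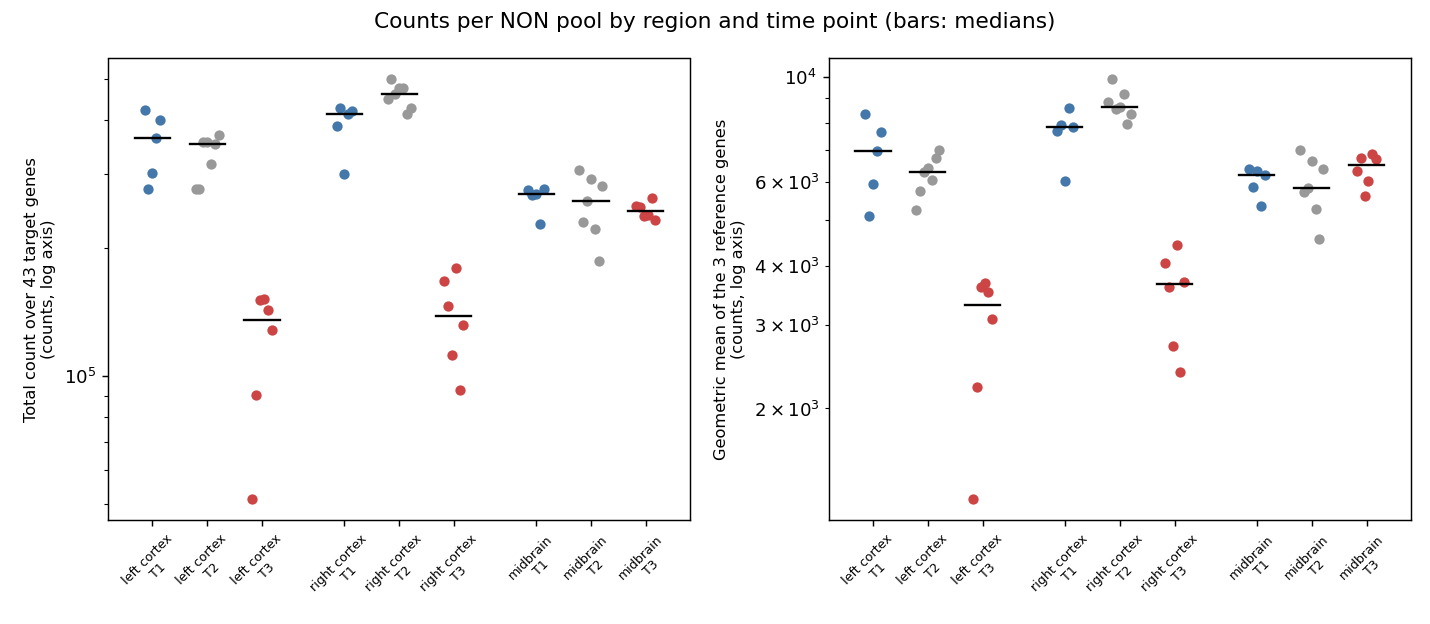
Total target gene count (left) and geometric mean of the 3 reference genes (right) of each NON pool, on log axes, for the left cortex, right cortex and midbrain at T1, T2 and T3; points are pools and bars are medians. The T3 pools of both cortices lie below all T1 and T2 pools of the same cortex, while the midbrain medians stay between 244529.5 and 268495 counts.

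In the midbrain, taken largely from the same animals and including the hypothalamus, the total count had a median of 268495 at T1 and 244529.5 at T3. At T2, the time point of diabetes onset, at which NON mice were 90 to 286 days old, the medians were 351996 on the left and 461879 on the right. Low depth was therefore found at T3 in the cortices and not in the midbrain or at T2. The study's methods state that a fixed volume of RNA was hybridised. Which pools were run together is not given in the sources used here, so depth, run and time point cannot be told apart in the cortices, and the part of depth in the gene changes was not tested. All changes below are in counts relative to the reference genes. Fewer cells of a type and less RNA per cell cannot be told apart in these tissue pools.

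With the reference genes as the scale and collection time as a covariate, the quasi-likelihood test of edgeR, adjusted over the 43 genes by the Benjamini-Hochberg method, called 25 genes on the left (58.1% of the genes tested) and 25 on the right (58.1%) at an adjusted p under 0.05. In the left cortex 18 genes fell (41.9%) and 7 rose (16.3%), and on the right 21 fell (48.8%) and 4 rose (9.30%). Over 1.5-fold there were 10 genes on the left (23.3%) and 11 on the right (25.6%), and over 2-fold there were 3 in each (6.98%). Under TMM normalization, which scales on the target genes themselves, 6 and 9 genes were called over 1.5-fold and 3 in each over 2-fold. On the right, the 3 over 2-fold held Cart (log2 fold-change 1.34) in place of Jak2 (-0.97). The 9 on the right include Amylin, which was near background. Over all 43 genes the log2 fold-change had a median of -0.21 on the left and -0.31 on the right. Counts of T1 and T3 pools did not overlap for 20 genes on the left (46.5%) and for 18 on the right (41.9%). T3 pools lay below all T1 pools for 16 of these on the left and 14 on the right, and above them for 4 on each side. Lower in both cortices were 18 genes, higher in both were 4 (Akt1, Cart, Hdac5 and Ramp1), and none was called in opposite directions.

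**Figure D2:**
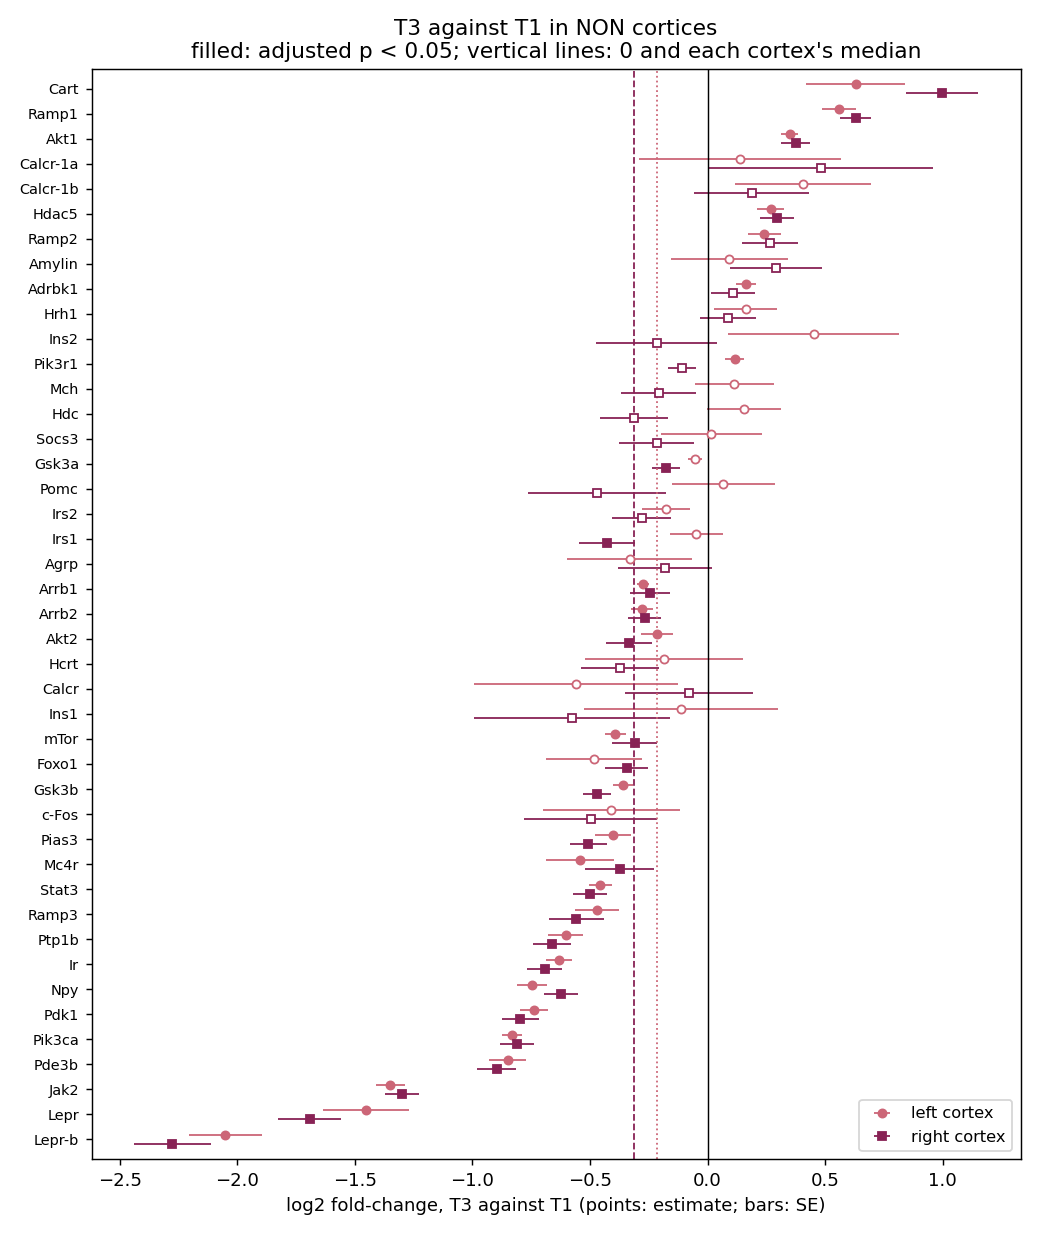
log2 fold-change of T3 against T1 for each of the 43 target genes in the left and right NON cortex; points are estimates, bars are SE, filled symbols have an adjusted p under 0.05, and vertical lines mark 0 and the median of each cortex. Lepr-b, Lepr and Jak2 lie beyond -1 in both cortices, and Cart, Ramp1 and Akt1 have the largest called rises.

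The split between rises and falls depended on the scale. Beside the 7 higher and 18 lower genes of the left cortex, TMM normalization gave 11 higher and 10 lower with a median of 0.072, and the total target count gave 14 higher and 9 lower with a median of 0.13. On the right, beside 4 higher and 21 lower, TMM and the total target count each gave 10 higher and 12 lower, with medians of 0.029 and 0.057. Of the genes called with the TMM scale, 17 in each cortex were also called with the reference genes, 1 of them in the opposite direction (Gsk3a, on the right). Under TMM the falls of Akt2, Arrb1, Arrb2, Mc4r, Ramp3 and mTor lost their call in both cortices, those of Gsk3b and Pias3 on the left, and those of Foxo1 and Irs1 on the right. Rises gained under TMM were those of Gsk3a, Hdc, Hrh1 and Mch on the left and of Adrbk1, Amylin, Hrh1, Pik3r1 and Ramp2 on the right. Right Amylin was at or under background in 4 of 5 T1 pools and all 6 T3 pools, so no change is read from it. B2m alone gave 8 higher and 11 lower on the left and 5 higher and 13 lower on the right. The 3 reference genes did not hold one ratio to each other: B2m, a component of the major histocompatibility complex class I, averaged 5.52 ± 0.194 times the reference gene mean at T1 and 4.82 ± 0.37 times at T3 on the left (SD, n = 5 and 6). On the right these ratios were 5.41 ± 0.283 and 5.07 ± 0.649, and in the midbrain they went the other way, from 4.34 ± 0.128 to 5.29 ± 0.537. Relative to the positive control probes, all 43 genes were lower at T3 in both cortices, with medians of -1.84 and -2.08, so every rise below is a rise relative to other mRNAs and turns to a fall on that scale. Under the 8 scalings other than the positive control probes, 9 genes on the left (Ir, Jak2, Lepr, Lepr-b, Npy, Ptp1b, Pde3b, Pdk1 and Pik3ca) were called lower each time and 3 (Akt1, Cart and Ramp1) higher each time. On the right, 12 genes were lower each time, which added Gsk3b, Pias3 and Stat3 to the same 9, and 4 were higher each time, with Hdac5 as the fourth.

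**Figure D3:**
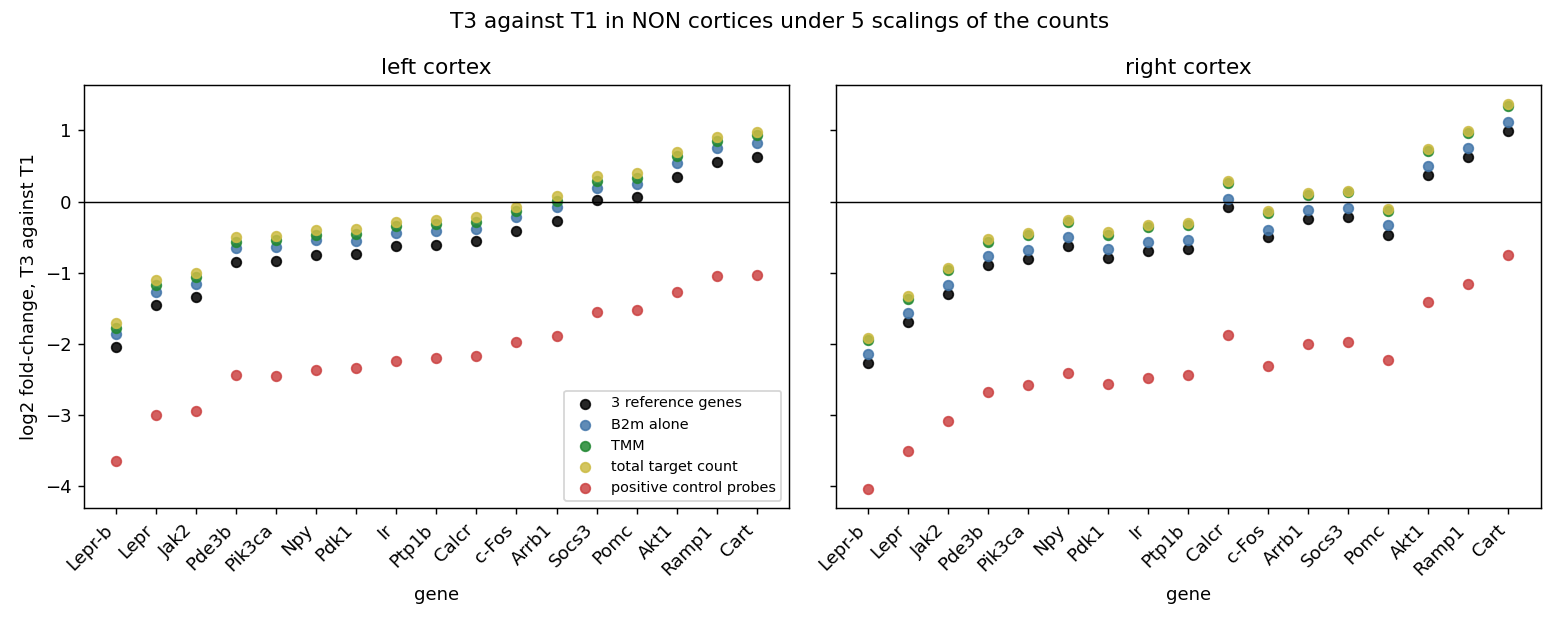
log2 fold-change of T3 against T1 for the 17 genes described in full, in the left and right NON cortex, under 5 scalings of the same counts. The points of a gene shift together from one scaling to the next, and only the positive control probes place Akt1, Ramp1 and Cart below 0.

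The leptin receptor and its kinase had the largest falls of the panel. The 4 genes of the list of leptin receptor, Jak2 and Stat3 fell in both cortices, with a median log2 fold-change of -1.40 on the left and -1.50 on the right, beside -0.21 and -0.31 over all genes, of which 41.9% and 48.8% fell. Lepr and Lepr-b, probes of the same gene, each enter these list medians. Lepr-b, the signalling form of the receptor, had 205, 182.5, 196.9, 226.1 and 234.5 normalised counts in the left T1 pools (1/3, 2/7, 4/5, 6 and 8/9), and 39.02 to 68.56 at T3. A normalised count is the count over the reference gene mean of its pool, brought back to counts with the average reference gene mean of all NON pools from that region. On the right, Lepr-b had 262.6, 242.1, 298.4, 327 and 279.3 at T1 in the same pools, and 34.31 to 84.14 at T3. All T3 pools of Lepr-b were far below all T1 pools in both cortices, at 24.1% of the T1 level on the left and 20.6% on the right. The log2 fold-change of Lepr-b was -2.05 ± 0.15 (SE, edgeR adjusted p = 4.45e-07) on the left and -2.28 ± 0.16 (adjusted p = 3.80e-08) on the right. Its raw counts at T3 were 14 to 47 on the left and 16 to 51 on the right, and right pools 8/9 and 10 were at or under background, set at 2 SD over the mean of the negative control probes. With the negative control mean subtracted, the log2 fold-change of Lepr-b was -2.38 on the left and -2.73 on the right.

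Lepr, counted with a second probe designed on another transcript of the same gene, had 1813, 1752, 1608, 1821 and 1576 normalised counts in the left T1 pools and 420.5 to 1055 (median 532.6) at T3. Right T1 pools had 2142, 2673, 2958, 2790 and 2754, and right T3 pools had 615.4 to 1059 (median 828.2). Groups did not overlap, although left pool 5/6, at 1055, stood above the other T3 pools of the left cortex. The log2 fold-change of Lepr was -1.45 ± 0.18 (SE, edgeR adjusted p = 1.73e-05) on the left and -1.69 ± 0.13 (adjusted p = 9.14e-08) on the right. Which receptor forms the Lepr probe counts was not analysed here.

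Jak2, the kinase bound to the leptin receptor, had the lowest adjusted p of the panel in both cortices. Its normalised counts in the left T1 pools were 19270, 21770, 17430, 20750 and 19500, and at T3 they were 6843 to 8618 (median 7750). Right cortex pools of Jak2 had 23510, 26280, 25150, 22360 and 26050 at T1 and 8840 to 10940 (median 10280) at T3. The T3 pools lay close together at 39.3% of the T1 level on the left and 40.6% on the right. This was a log2 fold-change of -1.35 ± 0.060 (SE, edgeR adjusted p = 4.40e-09) on the left and -1.30 ± 0.072 (adjusted p = 2.60e-09) on the right. Left pool 1, which had the lowest depth of all, also had the lowest Jak2, at 6843. On the right, the lowest Jak2, 8840, was not in pool 8/9, the right T3 pool of lowest depth. Stat3, the transcription factor that Jak2 activates, fell less, by 0.46 on the log2 scale on the left (edgeR adjusted p = 7.00e-06) and by 0.50 on the right (adjusted p = 2.85e-05). Under TMM Stat3 was -0.17 and -0.16 (adjusted p = 0.0137 and 0.00566), and its left call was made in 8 of 9 scalings.

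**Figure D4:**
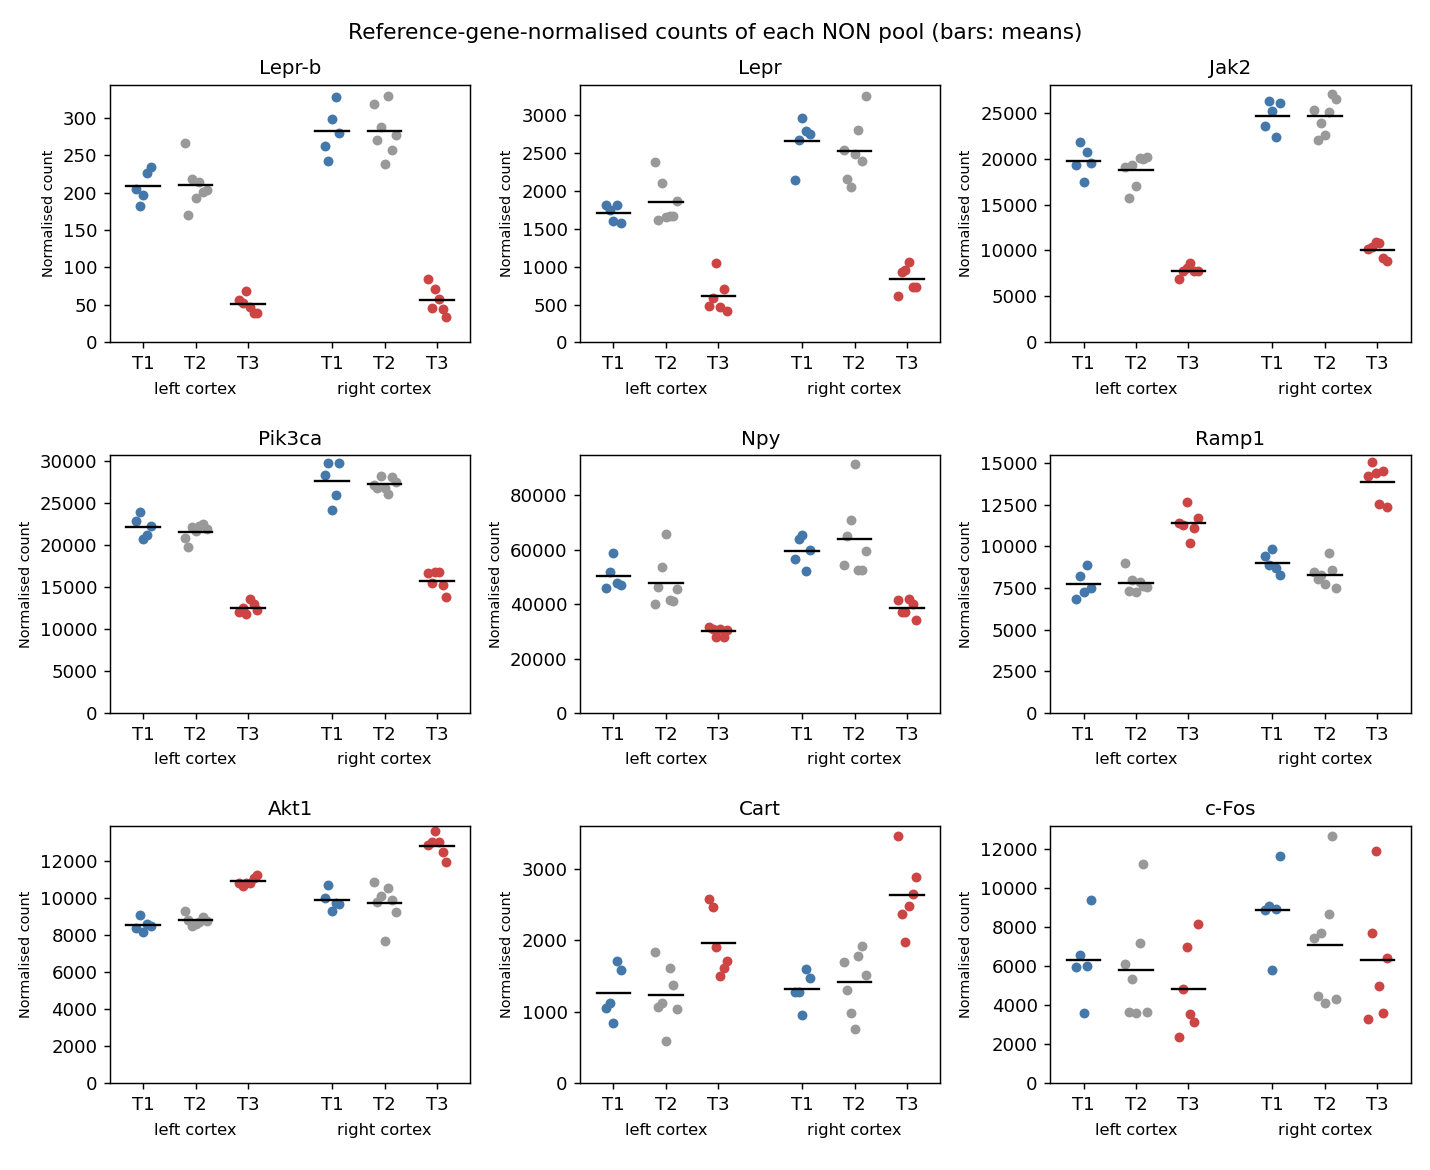
Normalised counts of 9 genes in each NON pool of the left and right cortex at T1, T2 and T3; points are pools and bars are means, and each vertical axis starts at 0. For Lepr-b, Lepr, Jak2, Pik3ca and Npy the T3 pools lie below all T1 and T2 pools, for Ramp1 and Akt1 they lie above all of them, and for c-Fos the time points overlap.

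Of 3 inhibitors of leptin and insulin signals, Ptp1b and Pias3 fell in both cortices and Socs3 did not pass the test in either, beside falls of 41.9% and 48.8% of all genes. Ptp1b, a phosphatase that acts on Jak2 and on the insulin receptor, had 7010, 9125, 6530, 7055 and 9238 normalised counts in the left T1 pools and 4384 to 5886 (median 5199) at T3. The AM pools 2/7 and 8/9 were the highest at T1, and no T3 pool reached the lowest T1 pool. Its log2 fold-change was -0.60 ± 0.074 (SE, edgeR adjusted p = 1.57e-05) on the left and -0.66 ± 0.081 (adjusted p = 5.42e-06) on the right, where T1 held 8400 to 11950 and T3 held 5734 to 7118. Pias3, an inhibitor of Stat3, fell by 0.40 on the log2 scale on the left (adjusted p = 0.000741) and by 0.51 on the right (adjusted p = 5.08e-05). Under TMM left Pias3 was -0.12 (adjusted p = 0.275). Socs3, a feedback inhibitor of the leptin receptor, had 40.5, 53.91, 51.45, 62.77 and 76.54 normalised counts in the left T1 pools and 28.6 to 77.31 (median 59.24) at T3. The groups of Socs3 overlapped, with log2 fold-changes of 0.016 ± 0.22 (SE, edgeR adjusted p = 0.943) on the left and -0.22 ± 0.16 (adjusted p = 0.241) on the right.

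Among insulin ligands, receptor and substrates, 1 of 5 genes fell on the left and 2 of 5 on the right, beside 41.9% and 48.8% of all genes, with medians of -0.11 and -0.43, of which the left one is the value of Ins1, a probe near background. Ir, the insulin receptor, had 2932, 2915, 2619, 2791 and 2907 normalised counts in the left T1 pools and 1700 to 1944 (median 1825) at T3. Right cortex pools of Ir had 3628, 3913, 3769, 3632 and 4081 at T1 and 2082 to 2532 (median 2391) at T3. No pools overlapped, and the log2 fold-change was -0.63 ± 0.056 (SE, edgeR adjusted p = 1.16e-06) on the left and -0.69 ± 0.074 (adjusted p = 1.35e-06) on the right. Irs1, a docking protein of the receptor, had a log2 value of -0.048 on the left (adjusted p = 0.768) and fell by 0.43 on the right (adjusted p = 0.00654), where it was -0.093 under TMM (adjusted p = 0.520). Irs2 had -0.18 (adjusted p = 0.179) and -0.28 (adjusted p = 0.0676). Ins1 and Ins2, the insulin genes, were at or under background in all 6 T3 pools of both cortices and in 3 or 4 of the 5 T1 pools, so no fold-change is given.

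Of the 10 kinases and effectors placed downstream of the insulin receptor, 6 fell and 2 rose on the left, and 8 fell and 1 rose on the right, with medians of -0.38 and -0.34. Over all genes 41.9% fell and 16.3% rose on the left, and 48.8% fell and 9.30% rose on the right. Under TMM this list had 3 falls and 3 rises on the left and 4 falls and 3 rises on the right, with medians of -0.090 and -0.0024. Pik3ca, the catalytic subunit of phosphoinositide 3-kinase, had 22840, 23860, 20660, 21140 and 22190 normalised counts in the left T1 pools and 11760 to 13560 (median 12370) at T3. Right cortex values of Pik3ca were 28270, 29700, 24180, 25930 and 29710 at T1 and 13720 to 16750 (median 16010) at T3. Pik3ca stood at 56.2% of the T1 level on the left and 57.0% on the right, with no overlap, and log2 fold-changes of -0.83 ± 0.042 (SE, edgeR adjusted p = 9.40e-09) and -0.81 ± 0.073 (adjusted p = 3.47e-07). Its regulatory partner Pik3r1 rose by 0.12 on the left (adjusted p = 0.0241) and had a log2 fold-change of -0.11 on the right (adjusted p = 0.138). Under TMM both were called rises, of 0.40 (adjusted p = 6.58e-05) and 0.22 (adjusted p = 0.0166).

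Pde3b, a phosphodiesterase that breaks down cyclic AMP, had 2464, 2693, 2308, 2570 and 2440 normalised counts in the left T1 pools and 1136 to 1542 (median 1420) at T3. Its log2 fold-change was -0.85 ± 0.079 (SE, edgeR adjusted p = 1.72e-06) on the left and -0.90 ± 0.083 (adjusted p = 3.81e-07) on the right, where 2793 to 3327 counts at T1 faced 1423 to 1836 at T3. Pdk1 had 11660, 10660, 11410, 11320 and 10580 normalised counts in the left T1 pools and 5770 to 7263 (median 6819) at T3. No Pdk1 pool of T3 reached a T1 pool in either cortex, and the log2 fold-changes were -0.74 ± 0.059 (SE, edgeR adjusted p = 6.23e-07) and -0.80 ± 0.078 (adjusted p = 6.85e-07). The study lists this target as 3-phosphoinositide dependent kinase-1, although the transcript named for its probe belongs in RefSeq (GRCm38.p6) to pyruvate dehydrogenase kinase 1, a mitochondrial enzyme that restrains entry of pyruvate into the citric acid cycle, and 3-phosphoinositide dependent kinase-1 is listed there as Pdpk1. The gene is therefore described here as its probe names it, and the counts of the insulin list include it.

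Akt1 went the other way. It had 8359, 9089, 8161, 8588 and 8488 normalised counts in the left T1 pools and 10640 to 11260 (median 10810) at T3. Akt1 in the right cortex had 9999, 10710, 9272, 9742 and 9658 at T1 and 11930 to 13590 (median 12940) at T3. All T3 pools were above all T1 pools, with log2 fold-changes of 0.35 ± 0.035 (SE, edgeR adjusted p = 2.84e-06) and 0.37 ± 0.061 (adjusted p = 7.52e-05). Akt2, the second Akt kinase of the panel, fell by 0.21 on the left (adjusted p = 0.0181) and by 0.33 on the right (adjusted p = 0.00940), and under TMM the values were 0.072 and 0.0071 (adjusted p = 0.342 and 0.929). The kinases Gsk3b and mTor fell in both cortices, by 0.36 (adjusted p = 1.20e-05) and 0.39 (adjusted p = 9.76e-06) on the left and by 0.47 (adjusted p = 7.72e-06) and 0.31 (adjusted p = 0.0115) on the right. Under TMM the left values of Gsk3b and mTor were -0.071 and -0.11 (adjusted p = 0.163 and 0.0729), and right mTor did not keep its direction (0.029, adjusted p = 0.751). Gsk3a and the transcription factor Foxo1 had log2 fold-changes of -0.053 (adjusted p = 0.183) and -0.48 (adjusted p = 0.0626) on the left and fell by 0.18 (adjusted p = 0.0196) and 0.34 (adjusted p = 0.00541) on the right. Gsk3a turned to a called rise under TMM, of 0.23 on the left (adjusted p = 0.00191) and 0.16 on the right (adjusted p = 0.0310), and right Foxo1 had -0.012 (adjusted p = 0.921).

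Among the 7 amylin and calcitonin receptor genes, 2 rose and 1 fell on the left, and 1 rose and 1 fell on the right, beside rises of 16.3% and 9.30% and falls of 41.9% and 48.8% of all genes. Under TMM 2 rose on the left and 3 on the right, and none fell. The right rises include that of Amylin, from which no change is read because it was near background. The medians with the reference genes were 0.14 and 0.27, although 4 of the 7 were near background and the left median is the value of 1 of them, Calcr-1a. Ramp1, which turns the calcitonin receptor into an amylin receptor, had 6853, 8255, 7294, 8872 and 7499 normalised counts in the left T1 pools and 10200 to 12690 (median 11370) at T3. Right cortex values of Ramp1 were 9412, 8866, 9859, 8694 and 8304 at T1 and 12350 to 15060 (median 14320) at T3. Every T3 pool was above every T1 pool, at 1.47-fold on the left and 1.55-fold on the right, with log2 fold-changes of 0.56 ± 0.073 (SE, edgeR adjusted p = 2.43e-05) and 0.63 ± 0.067 (adjusted p = 1.35e-06). Ramp2 rose by 0.24 on the left (adjusted p = 0.0105) and had 0.27 on the right (adjusted p = 0.0676), where it was 0.61 under TMM (adjusted p = 0.000115). Ramp3 fell by 0.47 (adjusted p = 0.000880) and 0.56 (adjusted p = 0.000843), and was -0.18 and -0.22 under TMM (adjusted p = 0.191 and 0.165).

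Calcr itself was near background. It had 18.99, 13.48, 32.82, 63.53 and 19.31 normalised counts in the left T1 pools and 12.26 to 30.04 (median 16.28) at T3, and 2 T1 pools and 5 T3 pools did not exceed background. Right Calcr had 21.93 to 26.62 at T1 and 9.899 to 44.77 at T3, where no T3 pool exceeded background. No fold-change of Calcr is read from these values, and its log2 fold-changes were not significant (edgeR adjusted p = 0.308 and 0.772). Amylin and Calcr-1a were at or under background in at least 4 of the 5 T1 pools and in all T3 pools of both cortices, and Calcr-1b in 3 or 4 T1 pools and in 5 or 6 T3 pools. In normalised counts the background level itself averaged 16.5 at T1 and 28.4 at T3 on the left, and 26.1 and 40.0 on the right, while before normalization its median was 21.5 and 14.4 on the left and 29.6 and 19.2 on the right. Above background in every pool were 33 genes on the left and 32 on the right.

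The β-arrestins Arrb1 and Arrb2 and the receptor kinase Adrbk1, which switch off receptors of the calcitonin type, made up the list of receptor desensitisation, with 2 falls in each cortex and 1 rise on the left, and medians of -0.27 and -0.24, beside falls of 41.9% and 48.8% and rises of 16.3% and 9.30% of all genes. Under TMM none of the 3 fell and 1 rose in each cortex. Arrb1 had 20540, 21100, 20130, 19770 and 20110 normalised counts in the left T1 pools and 16420 to 17270 (median 16790) at T3. This narrow separation gave a log2 fold-change of -0.27 ± 0.026 (SE, edgeR adjusted p = 2.27e-06) on the left, and on the right, where T1 and T3 overlapped, it was -0.24 ± 0.085 (adjusted p = 0.0217). The right call was made in 19 of 29 alternatives other than the positive control scale, and was lost without T1 pool 1/3, 2/7 or 8/9 (adjusted p = 0.0509, 0.0737 and 0.0741). Both values of Arrb1 are close to the median of all genes, and under TMM they were 0.011 and 0.093 (adjusted p = 0.852 and 0.164). Under the total target count, left Arrb1 turned to a called rise of 0.074 (edgeR adjusted p = 0.0405). Arrb2 fell by 0.28 and 0.27 (adjusted p = 0.000269 and 0.00496), with values of 0.0050 and 0.064 under TMM. Adrbk1 rose by 0.16 on the left (adjusted p = 0.00580) and had 0.11 on the right (adjusted p = 0.309), where it was 0.45 under TMM (adjusted p = 5.67e-05).

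Of the 7 appetite neuropeptide and melanocortin receptor genes, 2 fell (Npy and Mc4r) and 1 rose (Cart) in each cortex, with medians of -0.19 and -0.37, of which the left one is the value of Hcrt, near background at T3. Over all genes 41.9% and 48.8% fell and 16.3% and 9.30% rose. Under TMM 1 gene of the list fell in each cortex, and 2 rose on the left and 1 on the right. Npy, which stimulates feeding and marks cortical interneurons, had 46080, 51830, 58920, 47780 and 46920 normalised counts in the left T1 pools and 27970 to 31600 (median 30780) at T3. Right cortex pools of Npy had 56680, 63820, 65300, 52110 and 59970 at T1 and 34240 to 41870 (median 38590) at T3. The highest T3 pool was well below the lowest T1 pool in both, with log2 fold-changes of -0.75 ± 0.064 (SE, edgeR adjusted p = 9.90e-07) and -0.62 ± 0.071 (adjusted p = 2.52e-06). Mc4r, the receptor through which melanocortins restrain feeding, fell by 0.54 on the left (adjusted p = 0.00684) and by 0.37 on the right (adjusted p = 0.0398), with overlapping pools, and was -0.26 and -0.040 under TMM (adjusted p = 0.0772 and 0.880).

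Cart, an appetite-suppressing peptide, had 1047, 1119, 840.9, 1711 and 1583 normalised counts in the left T1 pools and 1495 to 2582 (median 1811) at T3. Right cortex values of Cart were 1273, 1281, 951.8, 1602 and 1478 at T1 and 1978 to 3453 (median 2564) at T3. The groups overlapped on the left, where pools 6 and 8/9 of T1 were above the lowest T3 pool, and did not overlap on the right. The log2 fold-change of Cart was 0.63 ± 0.21 (SE, edgeR adjusted p = 0.0211) on the left and 1.00 ± 0.15 (adjusted p = 4.93e-05) on the right. The left call was lost in 7 of 29 alternatives other than the positive control scale, among them without T3 pool 1, the pool of lowest depth (log2 fold-change 0.52, edgeR adjusted p = 0.0579), and without T1 pool 2/7 (0.58, adjusted p = 0.0606).

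Pomc, the precursor of melanocortins, had 60.12, 40.43, 47.01, 49.16 and 61.37 normalised counts in the left T1 pools and 42.02 to 90.44 (median 45.36) at T3. Its groups overlapped in both cortices, with log2 fold-changes of 0.068 ± 0.22 (SE, edgeR adjusted p = 0.816) and -0.47 ± 0.29 (adjusted p = 0.180). The hypothalamic markers Hcrt, Mch, Agrp, Pomc and Hdc bear on the dissection. None of the 5 passed the test in either cortex with the reference genes as the scale, beside 58.1% of all genes in each, with medians of 0.068 and -0.31. Under TMM, Hdc and Mch were called higher on the left, at 0.43 and 0.39 (adjusted p = 0.0291 and 0.0486). Mch, the most abundant of them, averaged 89.95 normalised counts at T1 and 97.8 at T3 on the left and 115.8 and 99.55 on the right, beside 26840 and 25090 in the midbrain, each region on its own scale. Hcrt averaged 25.85 and 23.3 on the left and 39.79 and 31.72 on the right, and was at or under background in 4 left and all 6 right T3 pools. Agrp averaged 26.17 and 19.76 on the left and 32.2 and 28.62 on the right, and was at or under background in 4 left and 5 right T3 pools, so little can be read from either. Hdc averaged 50.41 and 58.2, and 69.68 and 55.34.

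The remaining 4 genes were those of histamine, activity and chromatin, of which 1 rose in each cortex and none fell, beside rises of 16.3% and 9.30% and falls of 41.9% and 48.8% of all genes. Under TMM 3 of them rose on the left and 2 on the right. With the reference genes the only rise was that of Hdac5, a histone deacetylase, of 0.27 on the left (edgeR adjusted p = 0.00150) and 0.30 on the right (adjusted p = 0.00314). c-Fos, an immediate early gene induced by neuronal activity, had 5978, 6575, 3601, 5990 and 9385 normalised counts in the left T1 pools and 2390 to 8165 (median 4186) at T3. Right cortex pools of c-Fos had 8879, 9086, 5819, 8956 and 11630 at T1 and 3300 to 11920 (median 5698) at T3. Both groups were wide and overlapped, with log2 fold-changes of -0.41 ± 0.29 (SE, edgeR adjusted p = 0.271) and -0.50 ± 0.28 (adjusted p = 0.139). Without T3 pool 5/6, c-Fos passed the test, with log2 fold-changes of -0.72 (edgeR adjusted p = 0.0222) on the left and -0.94 (adjusted p = 4.78e-05) on the right, although the pools still overlapped. Right c-Fos was also called in AM pools alone (-0.70, adjusted p = 0.00598) and without the 2 T3 pools of lowest depth, of which 5/6 is one (-0.91, adjusted p = 0.000515), and left c-Fos in none of the other alternatives but the positive control scale. Without the T3 pools labelled previously diabetic the values were 0.028 and -0.031. The histamine receptor Hrh1 had 0.16 (adjusted p = 0.313) and 0.087 (adjusted p = 0.483), and was 0.44 and 0.42 under TMM (adjusted p = 0.00652 and 0.00214).

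NON pools of T2 are given as a description. Their mice were 90 to 286 days old, so some were no older than the T1 mice of 99 to 101 days. Jak2 had 15660 to 20210 normalised counts (median 19260) in the 7 left T2 pools and 21970 to 27000 (median 25040) in the 7 right ones, all above every T3 pool. Of these, 2 left pools and 1 right pool were below every T1 pool, and 2 right pools were above every T1 pool. Lepr-b had 170.4 to 266.3 (median 203.2) and 237.5 to 328.9 (median 276.7), and Ramp1 had 7283 to 8985 (median 7612) and 7479 to 9629 (median 8272). In the left cortex, all 7 T2 pools lay above every T3 pool for 14 of the 18 lower genes, and below every T3 pool for 2 of the 7 higher genes (Akt1 and Ramp1). On the right this held for 18 of 21 and for 4 of 4. Depth at T2 was near that of T1 as well, so T2 levels cannot place the change in time apart from depth.

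The change was also compared with that in the midbrain, whose pools came largely from the same mice and did not lose depth. In the midbrain, Lepr-b averaged 251 ± 19.0 normalised counts at T1 and 212.7 ± 23.4 at T3 (SD, n = 5 and 6), and Jak2 averaged 16140 ± 1251 and 13440 ± 1062. The midbrain log2 fold-changes were -0.24 for Lepr-b (edgeR adjusted p = 0.0504), -0.26 for Jak2 (adjusted p = 0.00849) and -0.35 for Lepr (adjusted p = 0.00548). In all, 17 genes fell in the midbrain, 0 rose and 0 changed over 1.5-fold, with a median of -0.19 over the 43 genes. These midbrain changes are given on the reference gene scale alone, so how many falls depend on that scale is not shown. Ramp1, Akt1 and Cart had log2 fold-changes of 0.082, 0.041 and 0.062 there, and did not pass the test (adjusted p = 0.244, 0.708 and 0.674).

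**Figure D5:**
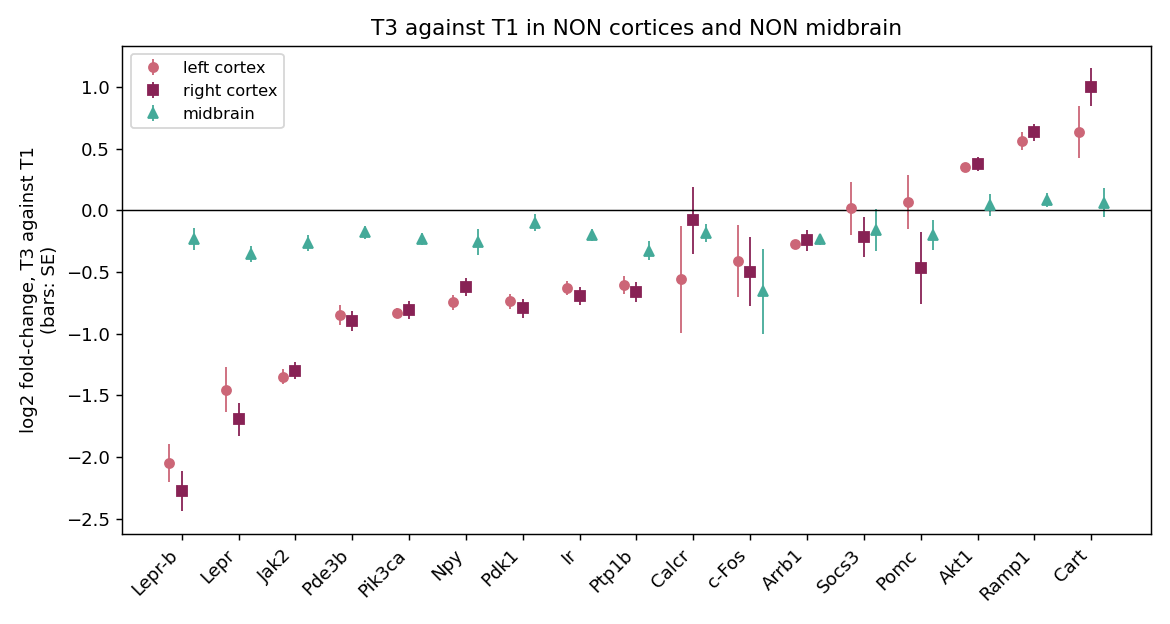
log2 fold-change of T3 against T1 for the 17 genes described in full, in the left cortex, right cortex and midbrain of NON mice; points are estimates and bars are SE. Lepr-b, Lepr and Jak2 lie between -2.28 and -1.30 in the cortices and between -0.35 and -0.24 in the midbrain, and Arrb1 lies at about the same value in all 3.

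The difference itself was tested with pools of the same mice as blocks, each region on its own reference gene scale, whose ratio of B2m to the reference gene mean moved in opposite directions in cortex and midbrain as given above. The change differed from that of the midbrain for 16 genes on the left (37.2% of the 43, 9 shared pools) and for 18 on the right (41.9%, 10 shared pools), and under TMM for 15 and 19. For Lepr-b the change in cortex minus that in midbrain was -1.83 ± 0.22 on the left (SE, edgeR adjusted p = 0.000117) and -2.19 ± 0.20 on the right (adjusted p = 6.31e-07). For Jak2 the differences were -1.04 ± 0.075 (adjusted p = 6.80e-06) and -1.04 ± 0.074 (adjusted p = 3.76e-08). Pik3ca differed by -0.59 in each cortex (adjusted p = 9.04e-05 and 2.52e-06), and Npy by -0.51 and -0.35 (adjusted p = 0.00201 and 0.00161). In the positive direction, Ramp1 differed by 0.45 ± 0.087 (adjusted p = 0.00167) and 0.57 ± 0.085 (adjusted p = 4.80e-05), and Hdac5 by 0.49 and 0.54 (adjusted p = 2.41e-05 and 8.94e-06).

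Between the left and right cortex, no gene's change differed at an adjusted p under 0.05 (0% of the 43, 10 shared pools, edgeR with the pool as a block), and 5 genes had an unadjusted p under 0.05. The difference, left minus right, was 0.24 for Lepr-b (95% interval -0.11 to 0.60), -0.076 for Jak2 (-0.26 to 0.11) and -0.28 for Cart (-0.62 to 0.056). For Npy it was -0.16 (-0.28 to -0.031), which did not pass the adjusted test (edgeR adjusted p = 0.237).

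Homozygous (HOM) mice, which carry the transgene on both alleles, gave the same comparison with 4 T1 pools and 6 T3 pools per cortex, from mice aged 99 to 101 and 400 to 407 days where the labels give an age. Of the 6 HOM pools at T3, 1 was collected in the afternoon and 5 are labelled previously diabetic, beside 3 and 3 of the 6 NON pools, and the part of the diabetes label in the differences below was not tested. Their total counts also fell, from a median of 396077.5 to 200663 on the left and from 443449.5 to 164744.5 on the right. In HOM cortices Jak2 had log2 fold-changes of -1.30 and -1.28, Lepr-b of -2.23 and -2.08, and Ramp1 of 0.40 and 0.72. Cart was not called in HOM (0.27 and 0.62, edgeR adjusted p = 0.632 and 0.166), nor was Hdac5 (0.040 and 0.19, adjusted p = 0.773 and 0.151), and Npy was called on the right (-0.62, adjusted p = 0.0240) and not on the left (-0.46, adjusted p = 0.115). No gene's change differed between HOM and NON at an adjusted p under 0.05 in either cortex (0% of the 43 in each, edgeR), with 1 gene at an unadjusted p under 0.05 on the left and 0 on the right. That gene was Socs3, with a difference, HOM minus NON, of -1.10 on the left (95% interval -2.14 to -0.067, edgeR adjusted p = 0.796) and -0.92 on the right (-2.03 to 0.19, adjusted p = 0.947). For Jak2 it was 0.089 on the left (95% interval -0.10 to 0.28) and 0.072 on the right (-0.15 to 0.295). For Lepr-b it was -0.14 (-0.58 to 0.31) and 0.30 (-0.22 to 0.81), and for Cart -0.29 (-1.17 to 0.58) and -0.32 (-1.08 to 0.43). For Cart these intervals hold differences as large as the change itself.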

How the data were processed

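The authors extracted RNA of the dissected regions, mixed equal amounts of RNA of 2 mice where they pooled, counted it with a custom nCounter probe set, and deposited raw probe counts, not normalized. Groups, pools, ages and collection times were taken from the labels. In R 4.3.3 with edgeR 4.0.16, the NON pools of T1 and T3 of each cortex were fitted separately by the quasi-likelihood test with collection time as a covariate. The library size of a pool was the geometric mean of its 3 reference genes, the prior count was 0.125, and p-values were adjusted by Benjamini-Hochberg over 43 genes. Total target counts were 51446 to 428110 per pool, and the number of pools limits the precision. Differences of the change between regions used same-numbered pools as blocks, since the design text of the series gives them as the same mice. Deviations of these pools from the group means correlated over genes with a median of 0.469 between the cortices (over 0.1 in 9 of 10 pools). The median was 0.377 between left cortex and midbrain (8 of 9) and 0.262 between right cortex and midbrain (8 of 10, lowest -0.175). NanoStringDiff, used by the study, was not used here. DESeq2 1.42.0, other scalings, tests, subsets of pools and each pool left out were alternatives.

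Full values are given for the 12 genes with the lowest adjusted p in either cortex among those called, and for c-Fos, Calcr, Npy, Cart, Pomc and Socs3, which the study names (17 genes in all, since Npy is in both). The comparison, the gene lists and the genes were chosen with earlier results of these data known. Among 50 pairs of pools of the same group, 0 had identical counts (lowest chi-square per degree of freedom 6.05). All 43 probe transcripts matched a RefSeq gene, and 5 of these probes, for Calcr and Lepr, share a gene with another. Levels of the other two reference genes are not given.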

Additional observations from a re-analysis of the deposited data

Results flagged for a closer look

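Among 68 groups of pools examined for the genes described in full, 2 held a pool that stood apart from the rest of its group by Dixon's criterion, which chance alone meets in about 1 of 20 groups. Pomc in left T3 pool 5/6 was 90.44 normalised counts, with the next pool at 52.35. Calcr in left T3 pool 7 was 30.04, with the next at 16.66, where the other T3 pools did not exceed background.

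For several genes the change from T1 to T3 differed between a cortex and the midbrain, tested with pools of the same mice as blocks in edgeR. In the left cortex the differences, cortex minus midbrain on the log2 scale, were -1.04 for Jak2, -0.59 for Pik3ca, -1.83 for Lepr-b, -0.99 for Lepr, -0.59 for Pde3b, -0.53 for Pdk1, -0.51 for Npy, -0.41 for Ir, 0.45 for Ramp1 and -0.26 for Ptp1b, with adjusted p-values from 6.80e-06 to 0.00201. In the right cortex they were -1.04 for Jak2, -0.59 for Pik3ca, -2.19 for Lepr-b, -1.28 for Lepr, -0.73 for Pde3b, -0.67 for Pdk1, -0.35 for Npy, -0.49 for Ir, 0.57 for Ramp1, 0.33 for Akt1, -0.34 for Ptp1b and 0.76 for Cart, with adjusted p-values from 3.76e-08 to 0.00928. Depth fell in the cortices and not in the midbrain, and its part in these differences was not tested.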

How the results depend on the processing

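No paired analysis of T3 against T1 was possible because the time points hold different mice. The number of genes called stayed within 1.5 times of 25 in each cortex under all alternatives run except the positive control probes as the scale, which called 43 genes in each cortex, 38 in the difference of midbrain and left cortex and 43 in that of midbrain and right cortex. Leaving out 1 pool at a time gave 23 to 28 genes on the left and 22 to 28 on the right, 15 to 19 and 17 to 20 for the differences from midbrain, and 0 for the other differences. Without the replicate block, 0 genes differed between the cortices, 14 between midbrain and left cortex and 17 between midbrain and right cortex. Without the 2 T3 pools of lowest depth in each cortex, an alternative chosen after seeing the data, 24 and 26 genes were called.

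Among the values under alternatives of the genes described in full, 952 kept their direction and side of the threshold, 16 lost the call, 10 gained it and 36 changed sign. The other genes of the panel are not in these counts. With the positive control probes, Ramp1 was -1.05 and -1.16 (left and right), Akt1 -1.27 and -1.41, Cart -1.04 and -0.75, and left Pomc -1.52 and Socs3 -1.55. Arrb1 was 0.011 and 0.093 under TMM, 0.074 and 0.12 under the total target count, and 0.12 on the right under DESeq2 size factors. Of these values, the left one under the total target count was a called rise (edgeR adjusted p = 0.0405). The other changes of sign among the genes described in full were in genes that did not pass the test. Outside these, called genes also changed sign under TMM, such as Akt2 and Arrb2 in both cortices and Gsk3a and mTor on the right. Left c-Fos was 0.028 without the previously diabetic T3 pools, and left Calcr was 0.35 in AM pools. Left Pomc and Socs3 were -0.022 and -0.076 without B2m, -0.022 and -0.080 with the negative control mean subtracted, and -0.16 and -0.069 in AM pools. Right Calcr and Socs3 were 0.26 and 0.13 under TMM, 0.28 and 0.16 under DESeq2 size factors and 0.28 and 0.15 under the total target count, and right Calcr was 0.043 with B2m alone and 0.10 in PM pools. Leaving out 1 pool at a time, left Pomc ran from -0.21 to 0.23, left Socs3 from -0.18 to 0.13 and right Calcr from -0.31 to 0.16. The cause of these changes was not tested. At this depth 33 genes on the left and 32 on the right were above background in every pool.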

Other observations

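c-Fos separated the T3 pools by the label of previous diabetes in the 3 regions looked at, an observation made after the values were seen. In the left cortex the 3 pools labelled previously diabetic had 2390 to 3561 normalised counts and the other 3 had 4812 to 8165. In the right cortex they had 3300 to 4998 against 6399 to 11920, and in the midbrain 2093 to 2171 against 2349 to 7412. The two-sided exact permutation p was 0.10 in each region (adjusted p = 0.10 over the 3), which is the smallest that 3 against 3 pools allow, and the regions largely share mice. Of the other genes described in full, Socs3 also divided by this label, in opposite directions in the cortices, with 28.6 to 58.65 in the previously diabetic pools against 59.83 to 77.31 on the left and 75.55 to 86.09 against 61.19 to 66.81 on the right. Npy divided on the right (40050 to 41870 against 34240 to 37120) and not on the left. Jak2 did not divide, with means of 7728 and 7872 in the left cortex and 10040 and 10070 in the right.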
